A study of Mus musculus with 8 samples.

Results

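Cell cycle and proliferation genes were followed in RNA sequencing of mouse activated hepatic stellate cells (HSCs) and bone marrow-derived macrophages (BMDM) exposed to auranofin, a gold compound used against rheumatoid arthritis. The group consists of 40 genes listed by name, with no threshold on their values, and the list was drawn up with earlier results of these data known. All 40 were found by symbol among the 18645 genes listed for HSCs and the 17408 listed for BMDM. By role they comprise 5 G1 cyclins and kinases, 6 S phase cyclins, kinase and E2F factors, 4 inhibitors of cyclin-dependent kinases (CDKs), 7 genes of the MCM helicase and its clamp, 3 of nucleotide synthesis, 8 mitotic cyclins and kinases, and 7 of the spindle, kinetochore and chromosomes.

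HSCs were isolated from the liver of C57BL/6 mice, activated by culture on plastic and then kept for 12 h with vehicle or with auranofin at 0.03 µM. BMDM were grown from C57BL/6 bone marrow with M-CSF. In both BMDM groups the cells received LPS at 100 ng/mL and ATP at 1 mM, and 1 of the groups received auranofin for 1 h, at 0.1 µM by the sample labels. A higher auranofin concentration is given for this experiment in the study's text, so the BMDM dose is uncertain. Each of the 4 groups had 2 libraries, and the labels do not say whether these came from separate animals or cultures, so p-values measure the spread among these libraries, which may be technical. Values are FPKM, fragments per kilobase of transcript and per unit of library size, a scale on which levels of different genes can be compared.

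Cells enter division when G1 cyclins activate their kinases, which release E2F factors to transcribe genes for DNA synthesis. The MCM proteins form a ring that unwinds DNA at replication origins and is loaded in G1. Cyclin B with its kinase then drives mitosis, while CDK inhibitors hold the cycle back. Quiescent stellate cells divide little, and activated ones proliferate. Macrophages grown with M-CSF divide, and LPS is known to arrest them.

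The labelled cell types were checked against marker genes. All 12 stellate cell markers examined were found in the HSC libraries, at summed values of 4634 and 4755 FPKM under vehicle against 4087 and 4153 FPKM under auranofin. All 12 macrophage markers were found in the same libraries too, at summed values of 8565 and 8596 FPKM under vehicle against 8643 and 8555 FPKM under auranofin. The macrophage markers thus summed to more than the stellate cell markers in each HSC library, but most of that sum was Lyz2. Its values were 5519.3 and 5553.6 FPKM under vehicle against 5379.0 and 5440.1 FPKM under auranofin. Without Lyz2 the remaining macrophage markers stayed below the stellate cell sum in each HSC library. In bulk RNA of this kind, fewer cells of a type cannot be told apart from less RNA per cell. Endothelial markers summed to between 343.6 and 372.1 FPKM, hepatocyte markers to at most 1.76 FPKM and lymphocyte markers to at most 0.389 FPKM. Cholangiocyte markers summed to between 361.9 and 476.4 FPKM, nearly all of it from Spp1, which macrophages also express. Neutrophil markers summed to 17.6 and 6.75 FPKM with vehicle and to 6.18 and 69.96 FPKM with auranofin, so auranofin replicate 2 stood apart for these genes. In BMDM the macrophage markers summed to between 7151 and 8059 FPKM and the stellate cell markers to between 10.4 and 16.5 FPKM. The part of these other cell types in the values of the cell cycle genes was not tested.

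Depth was estimated by matching low values to whole fragments. It was between 29800000 and 39600000 fragments in the HSC libraries and between 27600000 and 34900000 in the BMDM libraries. After genes under a mean of 1 FPKM were left out, 12149 genes were tested in HSCs and 9232 in BMDM. Auranofin replicate 1 of BMDM stood apart from the other libraries of its table. It held the highest of the 4 values in 61.8% of the genes tested and the lowest in 27.9%, so BMDM values are given below with and without it.

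Promoter sequences were examined because genes of DNA synthesis and of mitosis are known to be controlled through different elements, E2F sites and the cell cycle homology region (CHR). RefSeq promoters on GRCm38.p6 were at hand for 34 of the 40 genes, and the 250 bases before each start were searched on both strands. The E2F words were TTTCCCGC, TTTGGCGC, TTTCGCGC and TTTGCCGC, and the CHR words were TTTGAA and TTCGAA. Mcm2 at chr6:88898781-88899030, Mcm6 at chr1:128359706-128359955 and Ccnb2 at chr9:70421555-70421804, all on the minus strand, are shown because they represent the helicase and the mitotic genes and contain no annotated exon. Capitals mark E2F and CHR words on either strand, read 5′ to 3′ on the strand of the gene.
Mcm2: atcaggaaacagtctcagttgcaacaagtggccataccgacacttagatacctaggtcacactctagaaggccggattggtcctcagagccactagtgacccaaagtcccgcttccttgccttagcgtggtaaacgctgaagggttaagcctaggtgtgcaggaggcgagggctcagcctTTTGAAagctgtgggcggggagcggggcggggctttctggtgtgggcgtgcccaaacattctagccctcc
Mcm6: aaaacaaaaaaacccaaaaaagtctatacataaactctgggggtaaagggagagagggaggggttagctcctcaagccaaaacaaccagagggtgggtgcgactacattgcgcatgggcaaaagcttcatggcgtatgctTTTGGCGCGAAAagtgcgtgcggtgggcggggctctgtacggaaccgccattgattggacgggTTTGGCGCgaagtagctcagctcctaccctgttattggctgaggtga
Ccnb2: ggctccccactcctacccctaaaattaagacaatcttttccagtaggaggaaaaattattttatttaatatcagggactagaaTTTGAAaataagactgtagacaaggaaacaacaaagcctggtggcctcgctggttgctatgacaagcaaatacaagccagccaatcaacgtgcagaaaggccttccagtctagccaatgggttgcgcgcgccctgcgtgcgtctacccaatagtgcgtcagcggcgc
In the Mcm6 window the capitals are 3 E2F words, of which a pair overlaps on opposite strands. In the Mcm2 and Ccnb2 windows they are 1 CHR word each. Some genes have more than 1 promoter in the table, and a gene was counted when any of its promoters held a word. An E2F word was found in 6 of 34 genes (17.6%), namely Mcm5, Mcm6, Mcm7, Cdk1, Cdk2 and Cdkn2a, against 2.16% of 27025 genes. Among MCM genes 3 of 5 (60.0%) held one, and 2 of the 5 held a CHR word. With the clamp and nucleotide synthesis genes included, an E2F word was found in 3 of 9 genes (33.3%) and a CHR word in 2 (22.2%). Among the mitotic and spindle genes a CHR word was found in 7 of 14 genes (50.0%) and an E2F word in 1 (7.14%), while 19.6% of all genes had a CHR word. The word CCAAT, left in lower case above and counted whether or not it touched another word, occurred in 25 of 34 genes (73.5%) against 37.5% of all genes, and in 13 of the 14 mitotic ones (92.9%). These are matches of letters, not sites shown to be bound.

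Levels in vehicle libraries differed widely between the cell types. The median of the 40 genes was 17.0 FPKM in HSCs and 2.73 FPKM in BMDM. In 35 genes all 4 HSC values were above all 4 BMDM values, and in 4 genes (Cdkn1a, Pcna, Cdk6 and Ccne1) all were below. Ccnd2 overlapped, through auranofin replicate 1 of BMDM. The tables were normalized separately and the cultures differ in dose, time and stimulus, so these are descriptions without a test. The share of all genes separated in this way was not counted, so the 35 genes are not shown to be unusual.

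**Figure D1:**
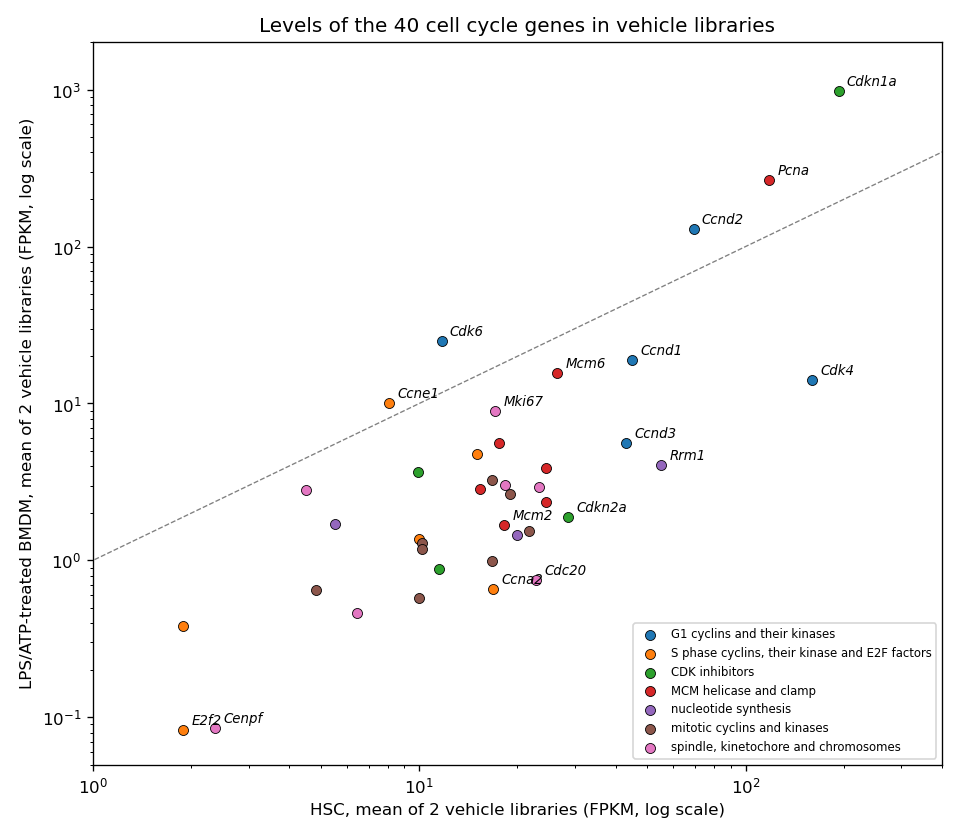
Mean FPKM of each of the 40 genes over the 2 vehicle libraries, in HSCs on the horizontal axis and in LPS/ATP-treated BMDM on the vertical axis, both on log scales. Points are coloured by role and the dashed line marks equal levels. Most genes lie under the line, whereas Cdkn1a, Pcna, Ccnd2, Cdk6 and Ccne1 lie above it.

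Cdc20, the activator of the anaphase-promoting complex, had 30.6 times the BMDM level in HSCs. The ratio was 27.8 for the kinetochore gene Cenpf, 25.5 for cyclin A2 (Ccna2) and 22.9 for E2f2. In the order named, their BMDM vehicle means were only 0.746, 0.0852, 0.66 and 0.0827 FPKM, so these ratios rest on low values. The proliferation marker Mki67 differed less, with a ratio of 1.89, as did the kinetochore motor Cenpe with 1.6 and Mcm6 with 1.69. At the other end, Cdkn1a, which encodes the CDK inhibitor p21, had a mean of 192.8 FPKM in HSCs and 986.1 FPKM in BMDM. The MCM proteins act as a ring with 1 copy of each, and their mean levels in HSCs lay between 15.4 and 26.5 FPKM, a span of 1.72-fold. In BMDM the span was 9.41-fold, from 1.67 FPKM for Mcm2 to 15.7 FPKM for Mcm6.

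The first comparison asked what 12 h of auranofin did to these genes in HSCs. Most values were slightly lower with auranofin, among them those of all 6 MCM helicase genes. Of the 40 genes, 33 had a log2 fold change below 0 (82.5%, against 47.8% of all genes tested) and 7 above 0 (17.5%, against 52.2%). The median was −0.08 against 0.00 over all genes tested, and the range was from −0.27 to 0.36. In 23 genes (57.5%) both auranofin values lay below both vehicle values, against 23.9% of all genes tested, and in 1 gene, Cdkn1a, both lay above, against 26.2%. At a limma p adjusted over all genes under 0.05, only Mcm2 was lower, 1 of 40 genes against a background of 1.09%, and 0 were higher, against 1.24%. No gene passed 1.5-fold together with an unadjusted limma p under 0.05, against 0.148% of all genes lower and 0.428% higher. At an unadjusted limma p under 0.05, 11 genes (27.5%) were lower, against 9.22%, and 1 (2.5%) was higher, against 8.57%.

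**Figure D2:**
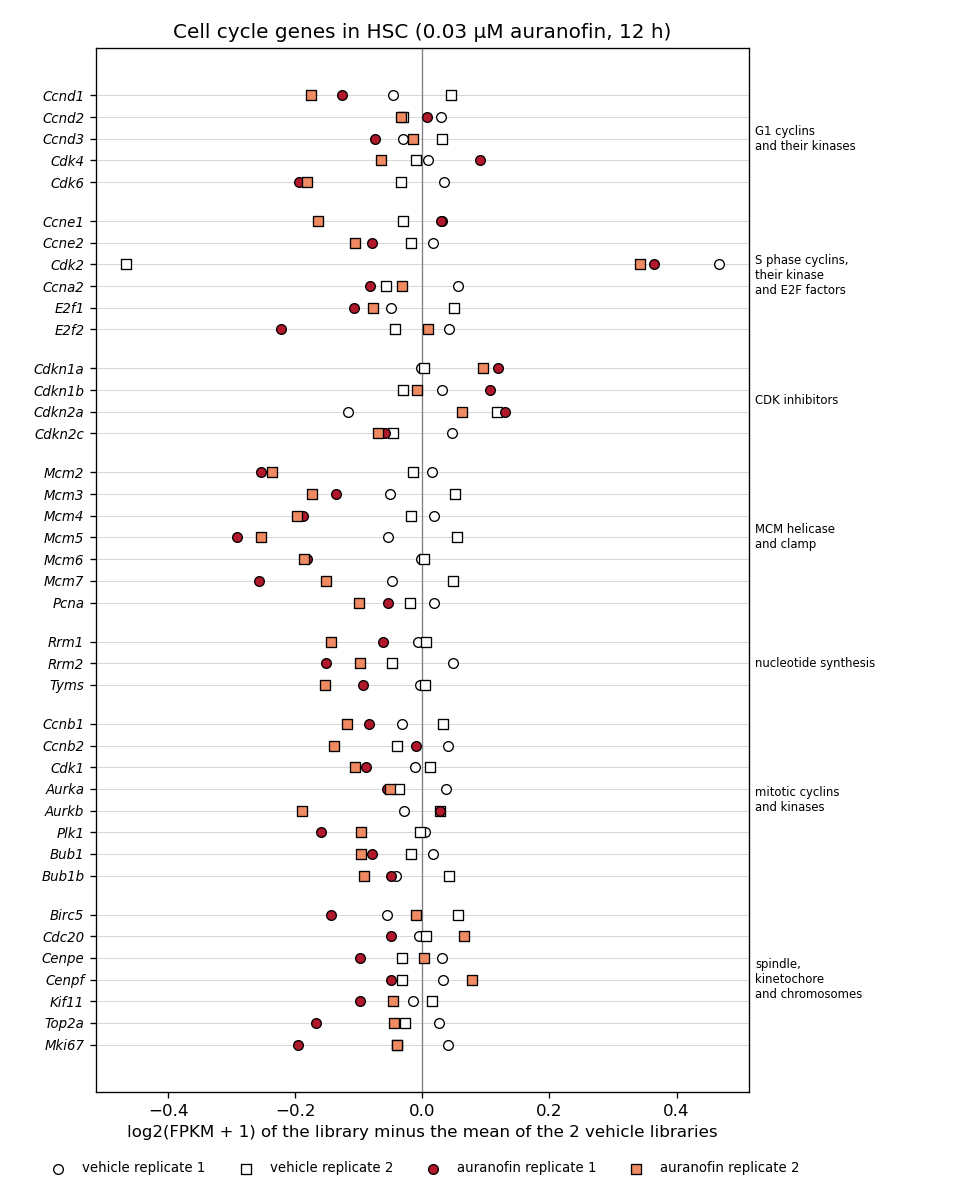
Each HSC library as log2(FPKM + 1) minus the mean of the 2 vehicle libraries, one row for each of the 40 genes, ordered by role. White symbols are vehicle and filled symbols auranofin, with circles for replicate 1 and squares for replicate 2. Both auranofin symbols lie left of both vehicle symbols for all 6 MCM genes, and vehicle replicate 2 of Cdk2 stands alone at the far left.

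Mcm2 (chromosome 6, 88883474 to 88898780, mm10), a subunit of the replicative helicase, fell by 0.25 on the log2 scale (SE 0.04), with an adjusted p of 0.0439 from limma. Its values were 18.4 and 18.0 FPKM under vehicle against 15.1 and 15.3 FPKM under auranofin, 16.6% lower. This call was lost when any single library was left out, where its adjusted p was between 0.0579 and 0.156, and under 4 other settings listed in the closing section. At 1520 or more estimated fragments a library, counting error was small beside this difference.

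The other 5 MCM genes, which complete the ring, did not pass the adjusted threshold. Mcm3 (chromosome 1, 20802966 to 20820312) had 23.6 and 25.4 FPKM under vehicle against 22.2 and 21.6 FPKM under auranofin. Mcm4 (chromosome 16, 15623897 to 15637400) had 15.6 and 15.2 FPKM against 13.4 and 13.3 FPKM. Mcm5 (chromosome 8, 75109468 to 75128439) had 16.8 and 18.2 FPKM against 14.1 and 14.5 FPKM, the lowest log2 fold change of the 40 genes at −0.27. In all 5 the vehicle and auranofin values were separate with auranofin lower, as in 23.9% of all genes tested. Mcm6 (chromosome 1, 128331575 to 128359705) had 26.5 and 26.6 FPKM under vehicle against 23.3 and 23.2 FPKM under auranofin. Mcm7 (chromosome 5, 138164583 to 138172111) had 23.5 and 25.2 FPKM against 20.2 and 21.8 FPKM. Their adjusted p-values from limma were 0.192 (Mcm3), 0.0897 (Mcm4), 0.0662 (Mcm5), 0.0718 (Mcm6) and 0.145 (Mcm7).

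All 6 MCM genes thus had lower values with auranofin, by 10.6% to 18.2%, and each had an unadjusted limma p under 0.05. Summed over the ring, the level was 124.3 and 128.5 FPKM under vehicle against 108.4 and 109.6 FPKM under auranofin. The 2 auranofin libraries gave like median differences from vehicle, −0.22 and −0.19 on the log2 scale. Under each of the 12 alternatives run, all 6 log2 fold changes stayed below 0, between −0.33 and −0.10. Exons of Mcm2, Mcm3, Mcm4, Mcm5 and Mcm6 overlap no other annotated gene. Mcm7 shares exon bases with the microRNA genes Mir25 and Mir93 on its strand and with Ap4m1 and Cops6 on the other, so its value is less certain.

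**Figure D3:**
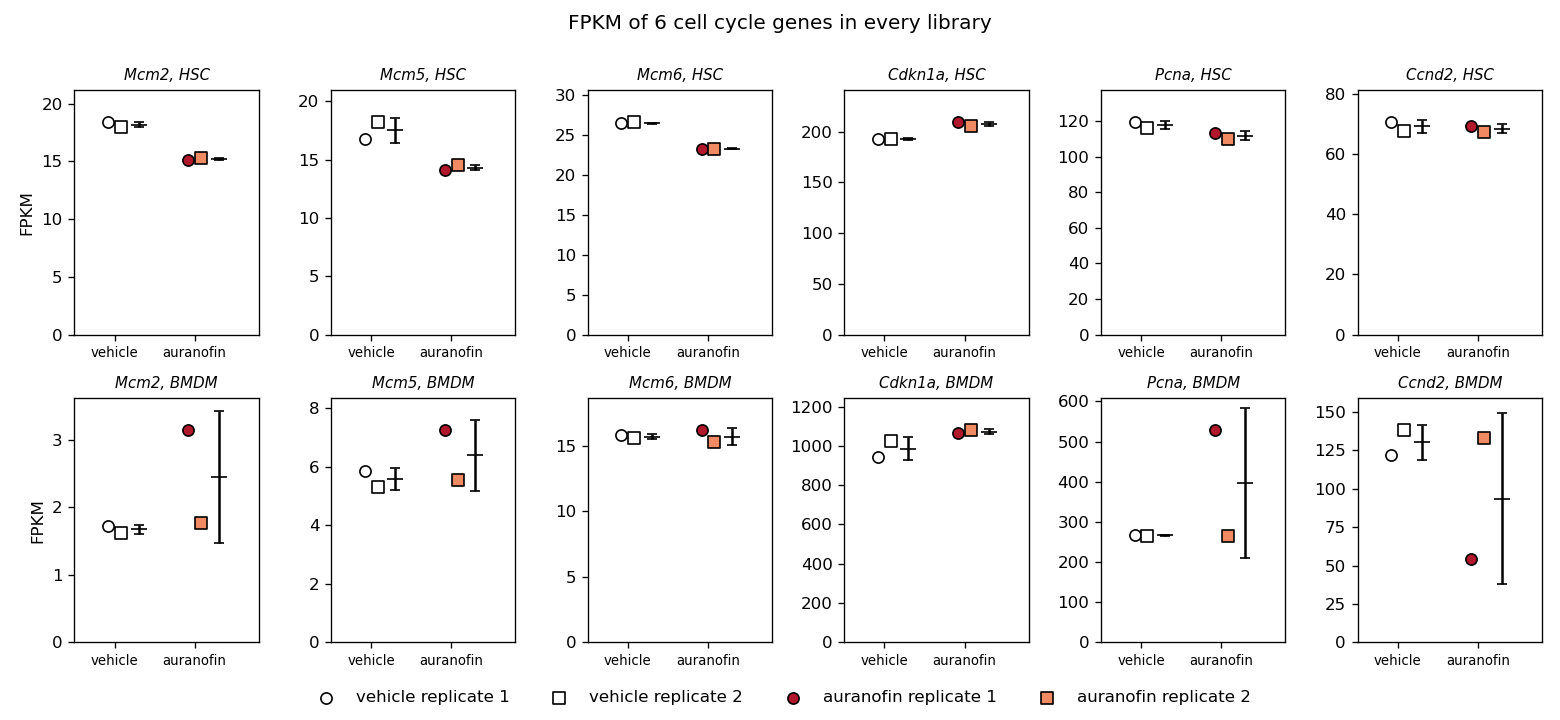
FPKM in every library for Mcm2, Mcm5, Mcm6, Cdkn1a, Pcna and Ccnd2, with HSCs in the upper row and BMDM in the lower row, on linear axes that start at 0. Symbols are single libraries and the bars beside them show the mean and SD of 2 libraries. In HSCs the MCM groups are separate, whereas in BMDM auranofin replicate 1 stands far from the other 3 libraries for Mcm2, Pcna and Ccnd2.

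Pcna, the sliding clamp of DNA polymerases, was the most abundant replication gene, with 119.5 and 116.4 FPKM under vehicle against 113.5 and 110.0 FPKM under auranofin. Its groups were separate, the auranofin mean was 5.26% below the vehicle mean, and pseudogenes named Pcna-ps1 and Pcna-ps2 may share its reads. The nucleotide synthesis genes lay in the same direction. Rrm1, the large subunit of ribonucleotide reductase, had 54.9 and 55.4 FPKM against 52.8 and 49.8 FPKM. Rrm2, the small subunit, had 20.7 and 19.3 FPKM against 17.9 and 18.6 FPKM. Tyms, which makes thymidylate, had 5.49 and 5.52 FPKM against 5.10 and 4.85 FPKM. In all 3 genes the groups were separate, as in 23.9% of all genes tested. Their log2 fold changes lay between −0.13 and −0.10, and none passed the adjusted threshold.

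Of the 5 genes that act in G1, 4 had a log2 fold change below 0, and the median was −0.05. Cyclin D1 (Ccnd1), which couples growth signals to the cycle, had 43.3 and 46.2 FPKM under vehicle against 40.9 and 39.5 FPKM under auranofin. Cdk6, one of its kinases, had 12 and 11.4 FPKM against 10.1 and 10.2 FPKM. These were the only G1 genes whose groups were separate, at adjusted p-values of 0.173 and 0.123 from limma. Cyclin D2 (Ccnd2) had 70.7 and 67.8 FPKM against 69.6 and 67.6 FPKM. Cyclin D3 (Ccnd3) had 42.1 and 44.0 FPKM against 40.8 and 42.6 FPKM. Cdk4, the kinase partner of D cyclins, had 161.3 and 159.2 FPKM against 170.7 and 153.2 FPKM, so that the auranofin libraries lay on both sides of the vehicle pair.

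Cyclins and factors of the G1 to S transition had a median log2 fold change of −0.08, and none of the 6 had an unadjusted limma p under 0.05. Cyclin E1 (Ccne1), which starts S phase with Cdk2, had 8.26 and 7.88 FPKM under vehicle against 8.25 and 7.09 FPKM under auranofin. Cyclin E2 (Ccne2) had 1.93 and 1.86 FPKM against 1.74 and 1.69 FPKM. E2f1, an activator of replication genes, had 14.4 and 15.5 FPKM against 13.8 and 14.1 FPKM. Only Ccne2 and E2f1 had separate groups (33.3%, against 23.9% of all genes tested). The related factor E2f2 had 1.98 and 1.81 FPKM against 1.48 and 1.91 FPKM. Cyclin A2 (Ccna2), used in S phase and G2, had 17.5 and 16.1 FPKM against 15.8 and 16.4 FPKM. Cdk2 had 13.5 and 6.59 FPKM under vehicle against 12.5 and 12.3 FPKM under auranofin. Vehicle replicate 2 stood alone at the low end, while the other vehicle library was the highest of the 4. Exons of Cdk2 overlap those of Pmel on the other strand.

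CDK inhibitors were the one role in which most log2 fold changes, 3 of 4, were above 0. Cdkn1a had 192.4 and 193.1 FPKM under vehicle against 209.3 and 205.9 FPKM under auranofin. It was the only gene of the 40 with both auranofin values above both vehicle values, at a log2 fold change of 0.11 (SE 0.03), an unadjusted p of 0.0150 and an adjusted p of 0.165 from limma. Cdkn1b, which encodes p27, had 10.1 and 9.64 FPKM against 10.7 and 9.80 FPKM. Cdkn2a, whose single entry covers p16 and p19ARF together, had 26.2 and 31.0 FPKM against 31.3 and 29.8 FPKM. Cdkn2c, which encodes p18, had 11.9 and 11.1 FPKM against 11.0 and 10.9 FPKM. Groups overlapped for Cdkn1b and Cdkn2a and were narrowly separate, with auranofin lower, for Cdkn2c.

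All 8 mitotic cyclins and kinases had a log2 fold change below 0, with a median of −0.08. In 6 (75.0%) the groups were separate with auranofin lower, against 23.9% of all genes tested. Cyclin B1 (Ccnb1) had 21.2 and 22.2 FPKM under vehicle against 20.4 and 19.9 FPKM under auranofin. Its kinase Cdk1 had 16.5 and 16.8 FPKM against 15.6 and 15.4 FPKM. Plk1, a kinase of mitotic entry, had 16.8 and 16.7 FPKM against 14.9 and 15.6 FPKM, the one gene of this role with an unadjusted limma p under 0.05 (adjusted p 0.220). The spindle checkpoint genes gave similar differences. Bub1 had 4.89 and 4.75 FPKM against 4.51 and 4.44 FPKM. Bub1b had 9.86 and 10.5 FPKM against 9.80 and 9.49 FPKM. The spindle pole kinase Aurka had 10.5 and 9.92 FPKM against 9.78 and 9.82 FPKM. These 3 genes had separate groups by narrow margins, whereas the remaining 2 overlapped. Cyclin B2 (Ccnb2) had 19.6 and 18.5 FPKM against 18.9 and 17.2 FPKM. Aurkb, the kinase of the chromosomal passenger complex, had 9.77 and 10.2 FPKM against 10.2 and 8.63 FPKM.

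Genes of the spindle, kinetochore and chromosomes were the least ordered of the later acting genes. In all 7, auranofin replicate 1 held the lowest of the 4 values, as it did in 27.2% of all genes tested. Auranofin replicate 2 lay among or above the vehicle values in 5. Top2a, which untangles chromosomes, had 23.7 and 22.8 FPKM under vehicle against 20.6 and 22.5 FPKM under auranofin. The spindle motor Kif11 had 6.39 and 6.54 FPKM against 5.97 and 6.23 FPKM. These were the 2 genes with separate groups (28.6%, near the 23.9% of all genes tested). Mki67 had 17.6 and 16.6 FPKM against 14.8 and 16.6 FPKM. Birc5, which encodes survivin, had 17.6 and 19.1 FPKM against 16.5 and 18.2 FPKM. Cdc20 had 22.7 and 22.9 FPKM against 22.0 and 23.9 FPKM. For these the auranofin libraries disagreed by more than the vehicle libraries did. Cenpe had 4.61 and 4.37 FPKM against 4.13 and 4.50 FPKM. Cenpf had 2.44 and 2.29 FPKM against 2.25 and 2.55 FPKM.

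Other cell cycle genes, in lists written from general knowledge, were counted in the same fit. Of 46 further replication and repair genes tested in HSCs, 41 had a log2 fold change below 0 and the median was −0.11, and in 28 (60.9%) both auranofin values lay below both vehicle values, again against 23.9% of all genes. Cdt1, which loads the MCM ring onto origins, fell by 0.28 on the log2 scale (SE 0.05), with an adjusted p of 0.0445 from limma. Its values were 17.4 and 17.1 FPKM under vehicle against 14.4 and 13.7 FPKM under auranofin. Uhrf1, which recruits the maintenance DNA methyltransferase to replicated DNA, fell by 0.27 (SE 0.04, adjusted p 0.0452 from limma), from 15.3 and 16.0 FPKM to 12.9 and 12.8 FPKM. These 2 were the only replication genes called, and 0 were called higher, against 1.09% of all genes tested lower and 1.24% higher. Their log2 fold changes stayed below 0 under every alternative, but the limma call was lost in the same 4 settings as that of Mcm2 and with most libraries left out, at adjusted p-values from 0.0470 to 0.117 for Cdt1 and from 0.0321 to 0.139 for Uhrf1. Of the 63 mitosis genes, 50 were below 0 with a median of −0.06, and of the 27 genes of G1 and checkpoint control 20 were below 0 with a median of −0.04. Of all genes tested, 47.8% were below 0 and 52.2% above, and 14 of 19 p53 target genes were above (73.7%), with a median of 0.04. No gene of these 3 lists was called at the adjusted threshold. At an unadjusted limma p under 0.05, where 9.22% of all genes were lower and 8.57% higher, 15 replication and repair genes were lower (32.6%) and 0 higher. By the same rule 9 mitosis genes were lower (14.3%) and 1 higher (1.59%). Of G1 control genes 1 was lower (3.7%) and 2 higher (7.41%), and of p53 targets 1 was lower (5.26%) and 2 higher (10.5%). The stellate cell markers had 9 of 12 log2 fold changes below 0, a median of −0.14 and 1 gene called lower at the adjusted p. Of these 12, 6 (50.0%) were lower at the unadjusted limma p, and 7 (58.3%) had both auranofin values below both vehicle values, beside 27.5% and 57.5% of the 40 cell cycle genes. The macrophage markers had 7 of 12 below 0, a median of −0.03 and 1 gene called higher. Of the 8 endothelial markers 2 were called lower. For these marker calls too, the shares of all genes tested were 1.09% lower and 1.24% higher. The part of the stellate cell values in those of the cell cycle genes was not tested.

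The second comparison asked what 1 h of auranofin did in LPS/ATP-treated BMDM. No cell cycle gene passed a call rule, and most differences came from auranofin replicate 1. Of the 40 genes, 33 were tested, and 7 (Ccne2, Ccna2, E2f2, Aurkb, Bub1, Cenpf and Kif11) had a mean under 1 FPKM. At an adjusted limma p under 0.05, 0 were lower and 0 higher, against 0.0% and 0.0108% of all genes, and the smallest adjusted p was 0.721. Past 1.5-fold with an unadjusted p under 0.05 there were 0 in either direction, against 0.065% lower and 0.0867% higher. At the unadjusted limma p alone, 0 were lower, against 0.217%, and 1 was higher, against 0.314%. The log2 fold change was above 0 in 28 of the 33 genes (84.8%) against 66.1% of all genes, with a median of 0.16 against 0.09.

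In 16 genes (48.5%) both auranofin values lay above both vehicle values, against 26.3% of all genes tested, and in 2 (6.06%), Cdk6 and Cenpe, both lay below, against 12.6%. Auranofin replicate 1 held the highest value in 26 genes (78.8%) and the lowest in 5 (15.2%). Its median difference from vehicle was 0.31 on the log2 scale, against 0.03 for auranofin replicate 2. Over all genes tested the same values were 0.18 and 0.00. Without auranofin replicate 1 the median of the 33 genes was 0.03, and no gene passed either call rule. Without auranofin replicate 2 the median was 0.31, against 0.18 over all genes tested. Cell cycle genes were then called in both directions, as were many of all genes tested.

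**Figure D4:**
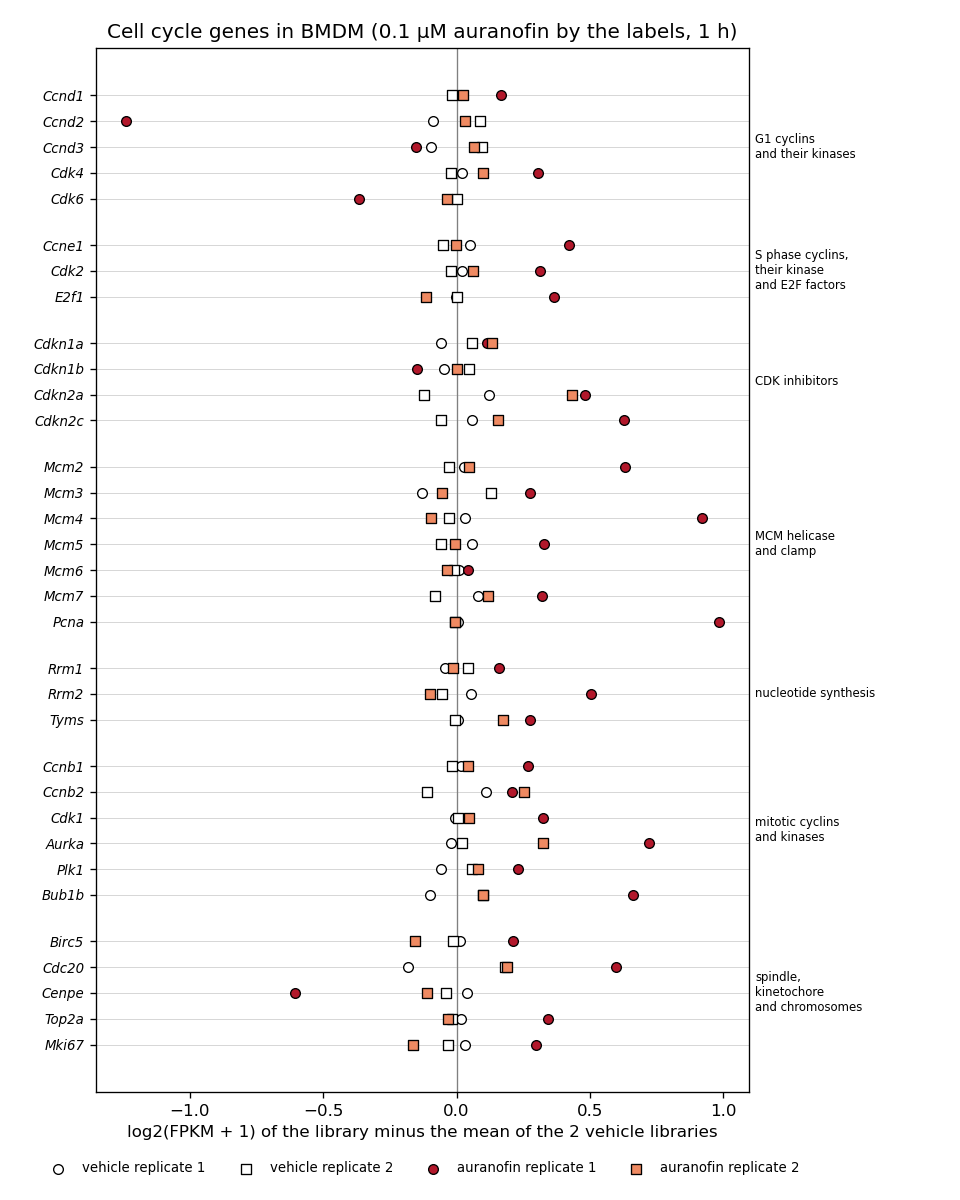
Each BMDM library as log2(FPKM + 1) minus the mean of the 2 vehicle libraries, one row for each of the 33 genes tested, ordered by role, with the symbols of the HSC plot. Auranofin replicate 1 (dark circles) is the rightmost symbol in 26 genes, while auranofin replicate 2 has a median difference from vehicle of 0.03. Both auranofin symbols lie right of both vehicle symbols in 16 genes and left of both in 2.

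Pcna showed the split most plainly among abundant genes, with 267.4 and 265.8 FPKM under vehicle against 528.7 and 265.3 FPKM under auranofin. Cyclin D2 (Ccnd2) had 122.2 and 138.2 FPKM against 54.4 and 132.8 FPKM. Auranofin replicate 1 thus had 1.98 times the vehicle mean of Pcna and 0.418 times that of Ccnd2, while replicate 2 lay within or beside the vehicle pair for both. Cdkn1a was the most abundant of the 40 genes, with 945.8 and 1026.4 FPKM against 1065.8 and 1080.8 FPKM. Here both auranofin libraries were higher by like amounts, at a log2 fold change of 0.12 and an adjusted p of 0.721 from limma.

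Among the other G1 genes, Ccnd1 had 19.1 and 18.6 FPKM under vehicle against 21.3 and 19.2 FPKM under auranofin. Ccnd3 had 5.18 and 6.05 FPKM against 4.94 and 5.90 FPKM. Cdk4 had 14.4 and 14.0 FPKM against 17.8 and 15.3 FPKM. Ccnd1 and Cdk4 had separate groups, with auranofin higher. Cdk6 had 25.1 and 25.2 FPKM against 19.3 and 24.5 FPKM, with auranofin lower in both libraries but by unequal amounts.

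Of the S phase regulators, Ccne1 had 10.5 and 9.74 FPKM against 13.9 and 10.1 FPKM. Cdk2 had 1.40 and 1.33 FPKM against 1.94 and 1.47 FPKM. E2f1 had 4.77 and 4.78 FPKM against 6.45 and 4.34 FPKM. Only Cdk2 had separate groups (33.3%, against 26.3% of all genes tested). The genes under the filter showed the same pattern at low levels, in that auranofin replicate 1 was the highest library for each. Ccne2 had 0.440 and 0.319 FPKM against 0.849 and 0.333 FPKM. Ccna2 had 0.680 and 0.640 FPKM against 1.06 and 0.659 FPKM. E2f2 had 0.106 and 0.0598 FPKM against 0.203 and 0.0834 FPKM.

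Cdkn2a was the one gene with an unadjusted limma p under 0.05, 0.0377, and its adjusted p was 0.721. Its values were 2.14 and 1.65 FPKM under vehicle against 3.03 and 2.89 FPKM under auranofin, a log2 fold change of 0.46 (SE 0.15). Unlike most of the group, its 2 auranofin libraries lay close together. Cdkn1b had 3.52 and 3.82 FPKM against 3.21 and 3.67 FPKM. Cdkn2c had 0.951 and 0.804 FPKM against 1.90 and 1.09 FPKM.

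The MCM genes of BMDM had log2 fold changes from 0.00 to 0.41, and auranofin replicate 1 was the highest library for all 6. Mcm2 had 1.72 and 1.62 FPKM under vehicle against 3.14 and 1.76 FPKM under auranofin. Mcm4 had 2.93 and 2.77 FPKM against 6.29 and 2.60 FPKM. Mcm6 had 15.8 and 15.6 FPKM against 16.2 and 15.3 FPKM. The most abundant subunit was thus the one that differed least. Mcm3 had 2.06 and 2.66 FPKM against 3.05 and 2.22 FPKM. Mcm5 had 5.85 and 5.32 FPKM against 7.26 and 5.55 FPKM. Mcm7 had 4.16 and 3.62 FPKM against 5.10 and 4.30 FPKM. Without auranofin replicate 1, 4 of the 6 log2 fold changes were below 0 and 2 above. With quantile normalization 2 were below 0 and with median centring 1.

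Nucleotide synthesis genes had log2 fold changes between 0.07 and 0.23. Rrm1 had 3.91 and 4.20 FPKM under vehicle against 4.65 and 4.01 FPKM under auranofin. Rrm2 had 1.55 and 1.36 FPKM against 2.48 and 1.29 FPKM. Tyms had 1.72 and 1.70 FPKM against 2.28 and 2.06 FPKM. Tyms alone had separate groups (33.3%, against 26.3% of all genes tested).

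All 6 mitotic cyclins and kinases tested had separate groups with auranofin higher, as did 26.3% of all genes tested. Auranofin replicate 1 held the highest value in 5 of these 6 genes. That library exceeded vehicle by a median of 0.3 on the log2 scale, whereas replicate 2 did so by 0.09. Aurka had 1.25 and 1.32 FPKM against 2.77 and 1.86 FPKM, the largest log2 fold change of the group at 0.52, with an unadjusted limma p of 0.0510. Ccnb1 had 1.58 and 1.52 FPKM against 2.07 and 1.63 FPKM. Ccnb2 had 2.93 and 2.37 FPKM against 3.20 and 3.34 FPKM. In Ccnb2 the auranofin libraries were close together, as in Cdkn2a. Cdk1 had 3.26 and 3.29 FPKM against 4.35 and 3.42 FPKM. Plk1 had 0.906 and 1.07 FPKM against 1.33 and 1.10 FPKM. Bub1b had 1.03 and 1.33 FPKM against 2.44 and 1.33 FPKM. In Bub1b the higher vehicle value and the lower auranofin value were equal to 3 digits. Of the genes under the filter, Aurkb had 0.572 and 0.575 FPKM against 0.752 and 0.696 FPKM, and Bub1 had 0.712 and 0.575 FPKM against 1.04 and 0.802 FPKM.

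Cenpe ran against its neighbours of the spindle and kinetochore, with 2.91 and 2.71 FPKM under vehicle against 1.5 and 2.53 FPKM under auranofin. Cdc20 had 0.527 and 0.964 FPKM against 1.62 and 0.973 FPKM. Its lowest library held an estimated 28.1 fragments, so counting error alone is sizeable there. Mki67 had 9.23 and 8.80 FPKM against 11.3 and 7.93 FPKM. Top2a had 2.96 and 2.87 FPKM against 3.97 and 2.83 FPKM. Birc5 had 3.07 and 2.99 FPKM against 3.67 and 2.62 FPKM. For Mki67, Top2a and Birc5 the vehicle pair lay between the auranofin libraries. Cenpf had 0.0920 and 0.0783 FPKM against 0.193 and 0.0952 FPKM, and Kif11 had 0.507 and 0.416 FPKM against 0.654 and 0.448 FPKM.

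The other cell cycle lists gave no call in BMDM, and none of their genes had an unadjusted limma p under 0.05. Of 36 replication and repair genes tested, 30 were above 0 with a median of 0.19, and of 30 mitosis genes 23 were above 0 with a median of 0.15. For G1 and checkpoint control it was 14 of 22 genes with a median of 0.07, and for p53 targets 13 of 15 with a median of 0.16. Of all genes tested 66.1% were above 0, with a median of 0.09, and of the G1 control genes 63.6%. The median difference from vehicle in auranofin replicate 1 was 0.34, 0.24, 0.13 and 0.27 for these lists, in the order named. In auranofin replicate 2 it was 0.03, 0.02, −0.01 and 0.02. Cdt1 had 13.2 and 12.6 FPKM under vehicle against 26.6 and 12.1 FPKM under auranofin, the same split between the auranofin libraries as Pcna. Summed macrophage markers were also highest in auranofin replicate 1, at 8059 FPKM against 7151 to 7298 FPKM in the other 3 libraries. Lyz2 alone gave 4278.5 FPKM of that sum. Of the 11 macrophage markers tested, 7 were highest in that library and 3 lowest, among them Fcgr1 at 183.5 FPKM. Neutrophil markers were at 168.1 and 175.1 FPKM under vehicle against 229.0 and 231.7 FPKM under auranofin. Of the 3 neutrophil markers tested, 2 were higher at an unadjusted limma p under 0.05 (66.7%, against 0.314% of all genes). Their part in the values above was not tested.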

How the data were processed

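A table of FPKM for each cell type was analysed, with 8 libraries in all. The deposited FPKM values were made by the authors from stranded mRNA libraries on mm10 with RefSeq transcripts. The submitters' processing notes name CASAVA, FastQC 0.11.7, Trimmomatic 0.38, HISAT2 2.1.0 and StringTie 1.3.4d, and the strand setting is not given in the sources used here. Groups came from the labels, which call the HSC control untreated.

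Each table was fitted alone, because they differ in dose, time and normalization. Genes averaging 1 FPKM or more over the 4 libraries entered the test as log2(FPKM + 1), and limma 3.58.1 (R 4.3.3, eBayes with trend) compared auranofin with vehicle, with Benjamini-Hochberg adjustment over all genes tested. Fold changes on this scale understate those of low genes. An exact two-sided permutation of 2 libraries against 2 cannot go under 0.333. Depth was estimated in Python 3.11.15 (numpy 2.4.6, pandas 2.3.3) by matching low values of single-transcript genes to steps of 1 fragment, and such numbers cover counting error only.

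The same fit was also run on simulated libraries, with planted changes larger than those of the 40 genes. That run therefore does not show how well changes of this size would be found. The alternatives were a pseudocount of 0.1, no filter, a minimum of 5 FPKM, quantile normalization, median centring, eBayes without trend, no moderation, a replicate block and each library left out. All 40 genes were named, with their values. The members and lists were chosen with earlier results of these data known.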

Additional observations from a re-analysis of the deposited data

Results flagged for a closer look

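In 10 of the 33 cell cycle genes tested in both cell types, both auranofin libraries lay below both vehicle libraries in HSCs and above them in BMDM (30.3%). Of all 8963 genes tested in both, 400 did so (4.46%), and each direction alone was taken by 23.9% of the genes tested in HSCs and 26.3% of those tested in BMDM. Among the cell cycle genes these single shares were already higher, at 57.5% of the 40 tested in HSCs and 48.5% of the 33 tested in BMDM. Whether both occurred together more often than these shares imply was not tested. The log2 fold change in BMDM minus that in HSCs was 0.59 for Mcm2 (−0.25 in HSCs, 0.34 in BMDM), 0.58 for Aurka (−0.06 and 0.52), 0.46 for Bub1b (−0.07 and 0.38) and 0.45 for Cdkn2c (−0.06 and 0.39). It was 0.42 for Mcm7 (−0.20 and 0.22), 0.35 for Tyms (−0.12 and 0.23), 0.29 for Cdk1 (−0.10 and 0.19) and 0.28 for Plk1 (−0.12 and 0.15). The smallest were 0.26 for Ccnb1 (−0.10 and 0.16) and 0.25 for Ccnd1 (−0.15 and 0.10). The difference was not tested, the cultures differ in dose and time, and auranofin replicate 1 of BMDM, the highest library in most genes, enters each BMDM value.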

How the results depend on the processing

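The p-values rest on 2 libraries a group of unstated origin, and the lowest BMDM levels rest on few fragments. In HSCs, 1 gene (Mcm2) was lower at an adjusted limma p under 0.05. That count was 0 with no filter (adjusted p of Mcm2 0.107), eBayes without trend (0.0876), no moderation (0.281) and the replicate block (0.0661), and from 0 to 1 with a library left out. The 1 gene lower without vehicle replicate 1 was Mcm5. The count of higher genes and that past 1.5-fold were 0, and from 0 to 1 with a library left out, the 1 being Cdk2 without vehicle replicate 1. The HSC median log2 fold change of −0.08 ranged from −0.100 to −0.076 with a library left out. In BMDM, leaving out a library gave from 0 to 3 genes lower and from 0 to 21 higher at the adjusted p, from 0 to 2 lower and from 0 to 7 higher past 1.5-fold, and a median from 0.031 to 0.307, in each case with the larger value without auranofin replicate 2. The BMDM median, 0.161 as reported, was 0.059 with quantile normalization, 0.069 with median centring, 0.111 with a minimum of 5 FPKM and 0.23 with a pseudocount of 0.1. A pseudocount of 0.1 put 2 genes (Cdkn2a and Aurka) past 1.5-fold and higher. Where a library is left out, the lone sample of its group is assumed to vary like the other group. The causes were not tested. Same-numbered libraries deviated together with a correlation of 0.109 in HSCs and −0.0551 in BMDM, and as nothing states that the numbers mark a shared culture, they were not taken as pairs. The replicate block changed no other count among the 40 genes, and also ended the calls of Cdt1 and Uhrf1. The runs for Cdt1 and Uhrf1 were added after seeing the data, and quantile normalization also ended the call of Uhrf1 (adjusted p 0.0574 from limma). None of these counts, medians or called genes changed direction under the alternatives, whereas signs of single MCM genes in BMDM did, as given with their values.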
